A study of Mus musculus with 48 samples.

Results

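Interferon-stimulated genes are the genes that a cell switches on after interferon has reached it. The set described here holds 37 of them, chosen by name and matched by gene symbol to the Ensembl identifiers of the count tables. All 37 were found among the 25913 genes of each table. They were followed in female mice, in the liver and in the fat labelled WAT (white adipose tissue) and BAT (brown adipose tissue). Each gene was read on its own and in a score, the mean over the members of log2 CPM (counts scaled to the size of the library).

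Type I interferons bind a receptor of IFNAR1 and IFNAR2, and Janus kinases then activate a complex that includes STAT2 and IRF9 and binds the interferon-stimulated response element (ISRE) in promoters. Interferon gamma acts through another receptor, the gamma-activated site (GAS) in promoters and IRF1. The induced proteins detect foreign nucleic acid, block translation or viral budding, or attack the membranes around intracellular microbes, and in fat and liver both parenchymal and immune cells can make them.

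All mice were C3B6F1, a hybrid of inbred strains, and none carried a transgene in the labels. Full feeding is labelled AL, and DR stands for chronic dietary restriction to 60% of AL intake, begun at 12 weeks of age. Late diet switches at 24 months gave the ALDR group, newly restricted, and the DRAL group, newly refed. Young ALDR mice had 2 months of restriction from 12 weeks and were compared with young AL mice.
In WAT there were 3 libraries each of AL and ALDR at 5 months, 3 each of AL and DR at 26 months, and 5 each of ALDR and DRAL at 26 months. The BAT design was the same except that DRAL had 3 libraries. For liver 3 ALDR and 3 DRAL libraries at 26 months were used. AL and DR liver libraries were not analysed here. The protocol text names epididymal fat although the mice were female, so the depot behind each fat label is uncertain, and it gives the old mice a slightly higher age than the labels. Replicates are described as biological, but the labels do not say which mice shared a cage or gave several tissues, so p-values measure the spread between these libraries.

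WAT libraries held 12247161 to 22500246 counts, BAT libraries 6075585 to 19349912 and liver libraries 14678489 to 22893099. A count of 0 then allows a level of up to 0.133 to 0.245 CPM in WAT, 0.155 to 0.494 in BAT and 0.131 to 0.204 in liver, for counting error alone. WAT and liver RNA was depleted of ribosomal RNA and sequenced in pairs, while BAT RNA was polyA-enriched and read from a single end, so levels are not compared between BAT and the others. Summed adipocyte markers ran from 14288 to 28027 CPM in WAT, brown adipocyte markers from 3520 to 8875 CPM in BAT and hepatocyte markers from 63607 to 95579 CPM in liver. In all 3 tissues the markers of the labelled tissue were therefore present. Hepatocyte markers also reached 3837 CPM in WAT, and skeletal muscle markers reached 12700 CPM there. In liver, 4 of 6 libraries held 11 to 20 counts of Y-chromosome genes although all mice were labelled female.

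RefSeq promoter windows (GRCm38.p6, from 250 bases before to 50 after each start) were found for 29 of the 37 members. The ISRE core (GAAA, any 2 bases, GAAA), searched on both strands, occurred in 18 of these 29 (62.1%), against 1079 of 27025 genes with a window (3.99%). The GAS motif TTCNNNGAA, also searched on both strands, occurred in 7 of 29 (24.1%), against 9.55% of genes. The 150 bases upstream of the start are printed for 5 of the members on which the results below turn. They run 5′ to 3′ on the gene's strand, with the motif letters in capitals (overlapping matches run together).
Irgm1, chr11:48871421-48871570, minus strand: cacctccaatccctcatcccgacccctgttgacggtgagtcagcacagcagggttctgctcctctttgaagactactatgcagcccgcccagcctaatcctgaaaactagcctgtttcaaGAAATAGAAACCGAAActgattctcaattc
Igtp, chr11:58199406-58199555, plus strand: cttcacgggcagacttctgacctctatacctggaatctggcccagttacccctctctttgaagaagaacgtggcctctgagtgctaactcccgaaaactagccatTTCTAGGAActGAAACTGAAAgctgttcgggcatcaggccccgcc
Gbp2, chr3:142620513-142620662, plus strand: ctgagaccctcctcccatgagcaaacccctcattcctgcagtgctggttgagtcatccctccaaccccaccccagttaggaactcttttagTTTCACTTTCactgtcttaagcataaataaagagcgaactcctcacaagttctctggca
Oas1a, chr5:120907526-120907675, minus strand: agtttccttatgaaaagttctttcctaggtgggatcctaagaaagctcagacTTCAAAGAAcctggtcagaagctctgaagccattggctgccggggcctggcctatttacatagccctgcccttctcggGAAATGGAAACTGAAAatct
Isg20, chr7:78913274-78913423, plus strand: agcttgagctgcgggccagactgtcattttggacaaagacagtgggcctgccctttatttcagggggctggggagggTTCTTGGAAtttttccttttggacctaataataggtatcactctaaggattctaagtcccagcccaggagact
Irgm1 and Oas1a carried overlapping ISRE matches close to the start, Oas1a with a GAS farther upstream, and Igtp carried a GAS followed by an ISRE. Gbp2 carried 1 ISRE, written here on the opposite strand, and Isg20 a GAS and no ISRE in any of its 3 windows. Among members not printed, Oasl1 and Ifi47 had no match to either motif, and Irf1 had a GAS and no ISRE. A match describes the letters only.

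Many members sit in gene clusters. On chromosome 19, Ifit2 (34550694-34576419), Ifit3 (34583531-34588731), Ifit3b (34607970-34613401) and Ifit1 (34640871-34650009) follow each other. On chromosome 5, Oas2, Oas3, Oas1g and Oas1a lie between 120730333 and 120907521, with Oasl2 and Oasl1 between 114896936 and 114937915. Gbp7, Gbp3 and Gbp2 lie on chromosome 3 between 142530342 and 142638008, and Rsad2 and Cmpk2 are neighbours on chromosome 12. Ifit3 and Ifit3b, Oas1a and Oas1g, and the Gbp genes are paralogues. Whether their reads were shared or assigned to the wrong copy was not measured, so the split between them is uncertain. Exons of Ifi47, Igtp and Irf9 overlap another gene on the same strand (Olfr56, Irgm2 and Rnf31), and exons of Dhx58, Irf1, Irf7 and Oasl1 overlap a gene on the opposite strand. Mx2 is annotated as a polymorphic pseudogene.

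Levels between members were compared per kilobase of exon. In WAT the highest were the GTPase Gbp2 at 62.9 CPM per kb (mean of groups), Bst2, which tethers budding virus particles to the cell, at 39.0, and the transcription factor Irf1 at 21.8. In BAT Bst2 led at 16.7 CPM per kb, followed by Gbp2 at 12.7. In liver Bst2 stood at 52.3 CPM per kb and the GTPase Igtp at 32.7.

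The score places the libraries of each group on 1 scale.

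**Figure D1:**
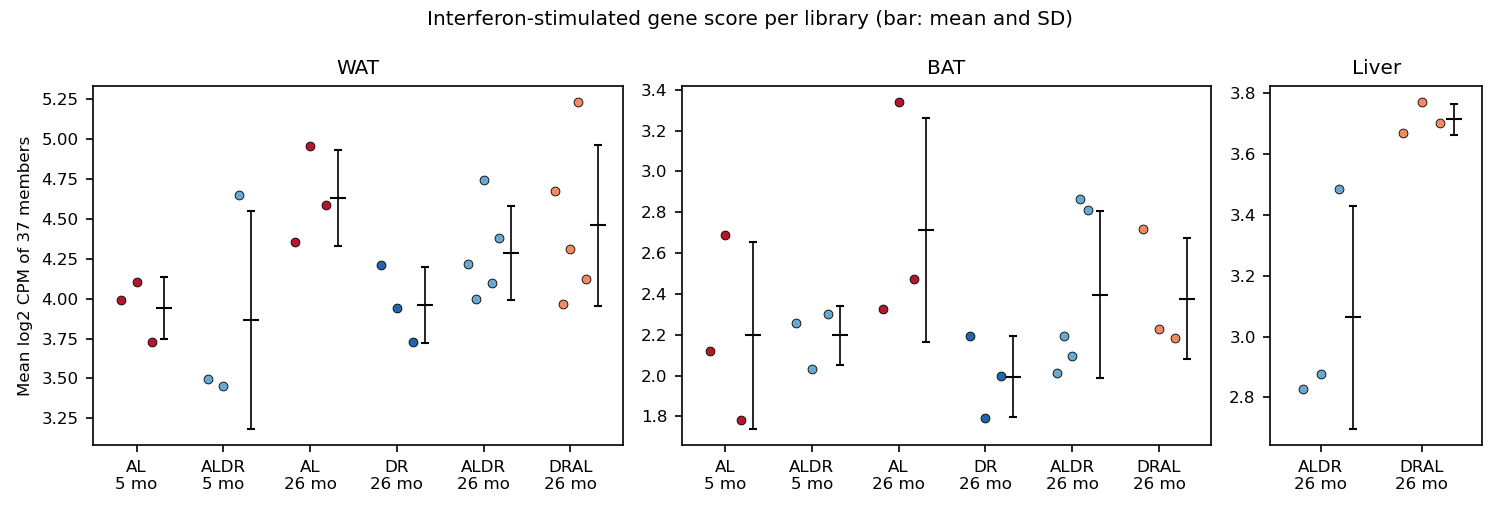
Mean log2 CPM of the members in each library (points) by diet and age for WAT, BAT and liver, with the group mean and SD as bars. In WAT all 3 DR libraries (3.73 to 4.21) lie below the 3 AL libraries of 26 months (4.36 to 4.95), and in liver the ALDR libraries (2.83 to 3.48) lie below the DRAL libraries (3.67 to 3.77).

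In WAT at 26 months the score was 4.63 ± 0.30 in AL (SD, n = 3), 3.96 ± 0.24 in DR (n = 3), 4.29 ± 0.29 in ALDR (n = 5) and 4.46 ± 0.50 in DRAL (n = 5). At 5 months it was 3.94 ± 0.19 in AL and 3.87 ± 0.68 in ALDR (n = 3 each). Old AL mice were thus 0.69 above young AL mice, with no overlap of libraries. The DR libraries of 26 months (3.73 to 4.21) overlapped the young AL libraries (3.73 to 4.11). The score is a description, and no test was made on it.

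Lifelong restriction against full feeding in WAT at 26 months asks how the set stands after long restriction. Of 37 members, 8 fell and 1 rose at an edgeR adjusted p under 0.05, while 34 had a negative sign. Among all 15828 genes tested in that comparison, 26% were called, 12.5% lower and 13.5% higher. The called share of members was 24.3%, close to that of all genes, with 21.6% lower and 2.7% higher. The median log2 fold change of the members was -0.60, against 0.00 for all genes. The libraries of DR and AL did not overlap for 23 members that were lower and 1 that was higher, and the same held for 19.7% of all genes on the lower and 19.1% on the higher side.

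**Figure D2:**
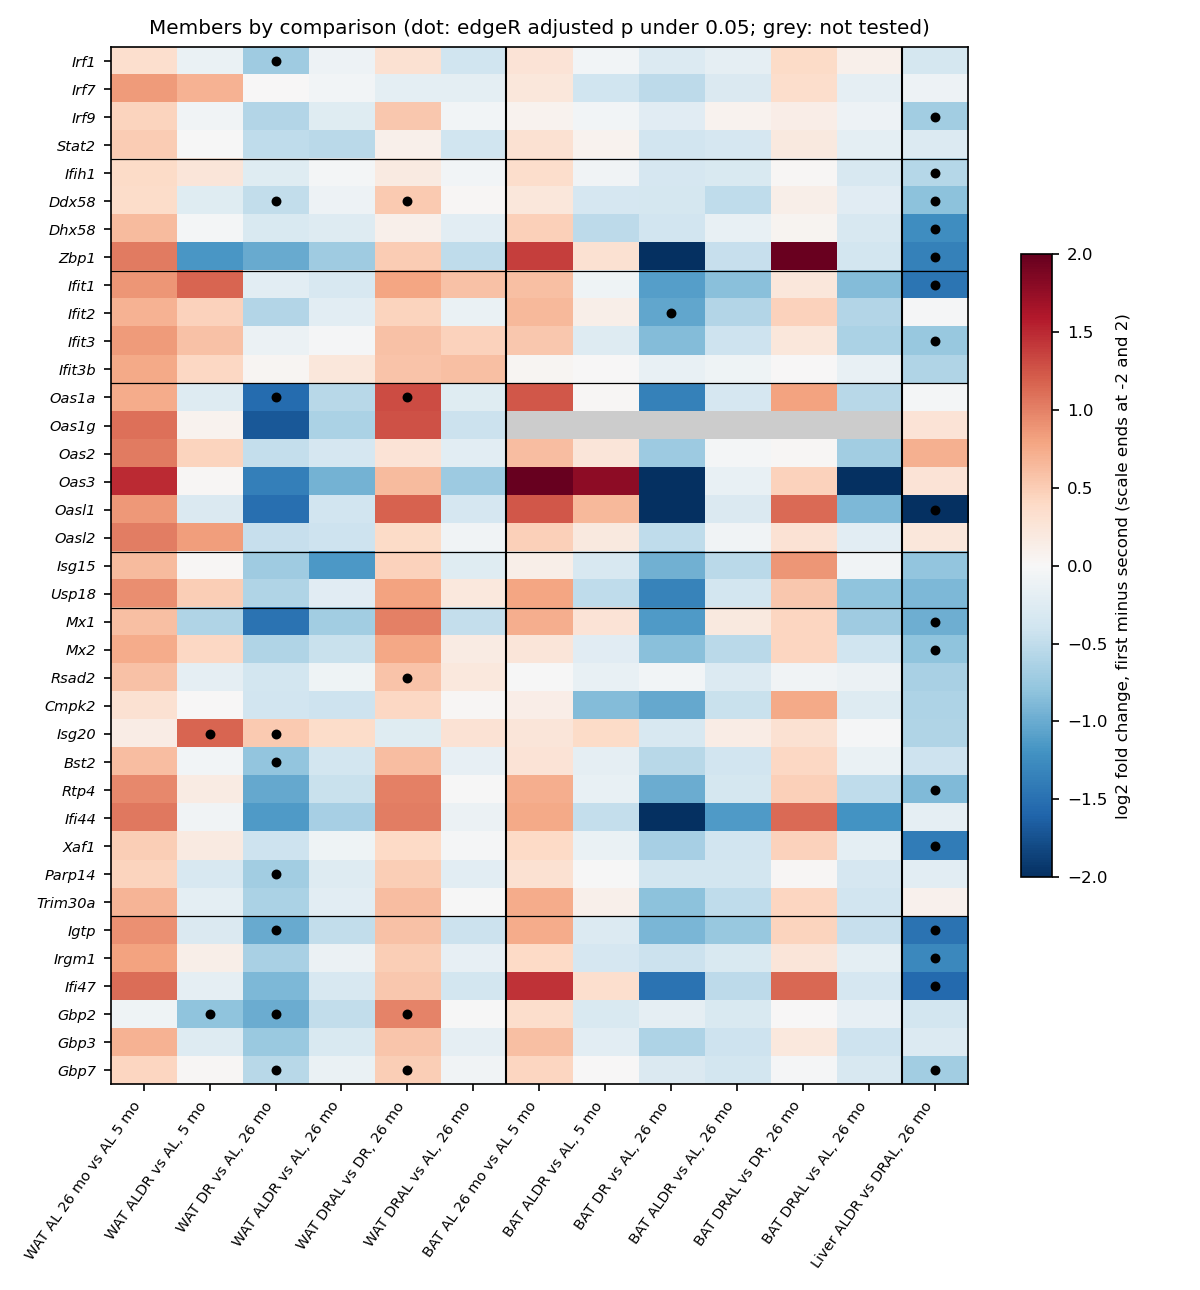
Log2 fold change (first minus second group, colour; the scale ends at -2 and 2) of each member (rows, ordered by role) in 13 comparisons (columns), with a dot for an edgeR adjusted p under 0.05 and grey for a gene not tested. DR against AL in WAT and ALDR against DRAL in liver are mostly blue, and the old against young AL columns are red in 36 of 37 members in WAT with no dot.

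Among the transcription factors Irf1, which is induced by interferon gamma and activates many of its targets, stood at 103, 122 and 98.2 CPM in the AL libraries and at 86.0, 59.3 and 52.9 CPM in the DR libraries. Each DR library was below each AL library. The log2 fold change was -0.71 ± 0.16 (SE, edgeR adjusted p = 0.00354). Irf7, Irf9 and Stat2, the other 3, were not called, and Irf7 was at 0.01.
Of the sensors, Ddx58 (RIG-I, which binds viral RNA) fell by 0.50 (edgeR adjusted p = 0.0487), with 57.5, 71.1 and 61.7 CPM in AL and 50.9, 44.4 and 39.2 CPM in DR. Ifih1, Dhx58 and Zbp1 were not called. The median over the 4 Ifit genes, which bind viral RNA caps and stop translation, was -0.16, and none was called.
The oligoadenylate synthetase family, most of whose members make the messenger that activates RNase L, had the lowest median of the roles, at -1.44 over 6 genes. Oas1a held 14.9, 21.8 and 22.8 CPM in AL and 9.80, 5.70 and 4.88 CPM in DR, a log2 fold change of -1.54 ± 0.50 (edgeR adjusted p = 0.0286). No DR library reached an AL library. Oas1g, its neighbour and paralogue, had a log2 fold change of -1.69 ± 0.63 and was not called (adjusted p = 0.0548).

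Of the 6 interferon-inducible GTPases, which attack the vacuoles of intracellular microbes, 3 fell. Gbp2 read 176, 205 and 202 CPM in AL and 115, 80.7 and 96.8 CPM in DR. Its groups did not overlap, and it fell by 1.00 ± 0.20 on the log2 scale (edgeR adjusted p = 0.00136). Igtp fell by 1.01 (adjusted p = 0.0497) and Gbp7 by 0.56 (adjusted p = 0.0222). Among the other effectors, Parp14, an ADP-ribosyltransferase, fell by 0.70 (adjusted p = 0.0204) and Bst2 by 0.79 (adjusted p = 0.0332).
Isg20, an RNA exonuclease, was the 1 member that rose. It held 5.52, 8.98 and 7.01 CPM in AL and 10.4, 10.7 and 9.95 CPM in DR, a log2 fold change of 0.53 ± 0.19 (adjusted p = 0.0446). All 3 DR libraries were above all 3 AL libraries. The call held under 3 of 12 alternatives (adjusted p from 0.0161 to 0.193). These were DESeq2, its size factors and the fit without AL replicate 2. It was lost without any 1 of the other 5 libraries of these groups, without the filter on low counts, with the replicate block, with only the groups compared and with the muscle marker score as a covariate.
Isg15, a ubiquitin-like modifier, and Usp18, the protease that removes it, were not called.

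The count of 9 was sensitive to single libraries. It became 3 without AL replicate 2, 3 without DR replicate 2 and 2 without DR replicate 3, while Gbp2 and Irf1 passed the threshold under all 12 alternatives run. All 10 macrophage markers fell in DR (median log2 fold change -1.88), with a summed level of 799 to 1232 CPM in DR and 2964 to 4812 CPM in AL, and none at 0. NK cell markers did not overlap either, at 1.98 to 10.4 CPM in DR and 12.4 to 21.1 CPM in AL (3 of 5 called lower, none at 0). Skeletal muscle markers summed to 320 to 12700 CPM in DR and 44.2 to 752 CPM in AL. With the muscle marker score as a covariate, 2 members, Gbp2 (-0.68) and Irf1 (-0.59), remained called, and 12.2% of all genes were called in that fit. The part of macrophage and NK cell RNA in the result was not tested. In whole-tissue RNA, fewer cells of a type and less RNA per cell cannot be told apart.

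Upstream of the members, 4 of 6 interferon receptor genes fell in DR, among them Ifngr2 by 0.59 (edgeR adjusted p = 0.00699) and Ifnar1 by 0.37 (adjusted p = 0.0119). Of 9 signalling genes 3 fell, including Irf5 by 1.33 (adjusted p = 0.000221) and Tyk2 by 0.40 (adjusted p = 0.0192). The interferon genes themselves were almost silent. Ifnb1 had 1 count in 22 WAT libraries, and Ifng had 135 counts spread over 19 of them. Among 61 further interferon-induced genes 20 fell and 0 rose, and among 19 genes of class I antigen presentation 9 fell and 0 rose. These 4 counts stand beside the 12.5% of all genes called lower in this comparison.

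Late restriction gave mostly negative signs in WAT and no called member. In ALDR against AL at 26 months 35 of 37 members were negative with a median of -0.32, and edgeR called 0 members (0 by DESeq2), against 4.36% of all genes. The score difference of -0.35 ran from -0.48 to -0.17 over the alternatives. At an unadjusted p under 0.05 there were 4 members, against 19.6% of all genes. Gbp2 held 146, 106, 158, 168 and 116 CPM in ALDR, all below the AL libraries, and its log2 fold change was -0.49 ± 0.18 (adjusted p = 0.123). Against DR, ALDR had 1 called member of 37, and 12.8% of all genes were called there (5.81% higher). Irf1 was higher by 0.61 in ALDR (adjusted p = 0.0117), with values of 116, 85.4, 96.3, 91.8 and 115 CPM that overlapped those of DR. That call was lost without DR replicate 2, without DR replicate 3 and with the muscle marker score as a covariate. With only the groups compared it was lost too (adjusted p = 0.0728), and Ddx58 was called in its place. Macrophage markers summed to 2051 to 3015 CPM in ALDR and 799 to 1232 CPM in DR, without overlap (8 of 10 called higher), and their part in the Irf1 result was not tested.

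After long restriction and refeeding, 5 members rose, a share near that of all genes. In DRAL against DR, 35 of 37 members were positive with a median of 0.53, and 5 rose while 0 fell. The called share of members was 13.5%, all of it higher. Of all genes 30.5% were called, and 14.6% were called higher. Gbp2 held 193, 157, 198, 262 and 163 CPM in DRAL, all above the DR libraries, and rose by 1.00 ± 0.18 (edgeR adjusted p = 0.000727). Rsad2 (viperin, which makes a chain-terminating nucleotide) rose by 0.58, Ddx58 by 0.52, Gbp7 by 0.49 and Oas1a by 1.30.
For these 4, DRAL and DR libraries overlapped. The count was 2 without DRAL replicate 4, the highest DRAL library for 36 of 37 members, 1 without DR replicate 3, 2 without DR replicate 2 and 10 without DR replicate 1. DRAL replicate 5 left out gave 8. Over the alternatives 2.42% to 30.7% of all genes were called in this comparison. All 10 macrophage markers rose in DRAL. With the muscle marker score as a covariate 0 members were called, and the share of all genes called fell to 2.42%. Muscle markers summed to 20.3 to 50.4 CPM in DRAL, and did not overlap with those of DR. Hepatocyte markers did not overlap either, at 421 to 800 CPM in DRAL and 2013 to 2953 CPM in DR. The part of hepatocyte and macrophage RNA in the result was not tested. DRAL against AL gave 0 called members by edgeR (0 by DESeq2), with 2.17% of all genes called, and 1 member at an unadjusted p under 0.05, against 19.7% of all genes. ALDR against DRAL gave 1, Gbp2, lower by 0.48 (adjusted p = 0.0467), with 12.3% of all genes called (5.96% lower). That call was lost without any 1 of ALDR replicates 1, 2, 3 and 5 or DRAL replicates 1, 3 and 4, without the filter on low counts, with only the groups compared and with the muscle covariate. The DR comparisons share the 3 DR libraries and the AL comparisons the 3 AL libraries.

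**Figure D3:**
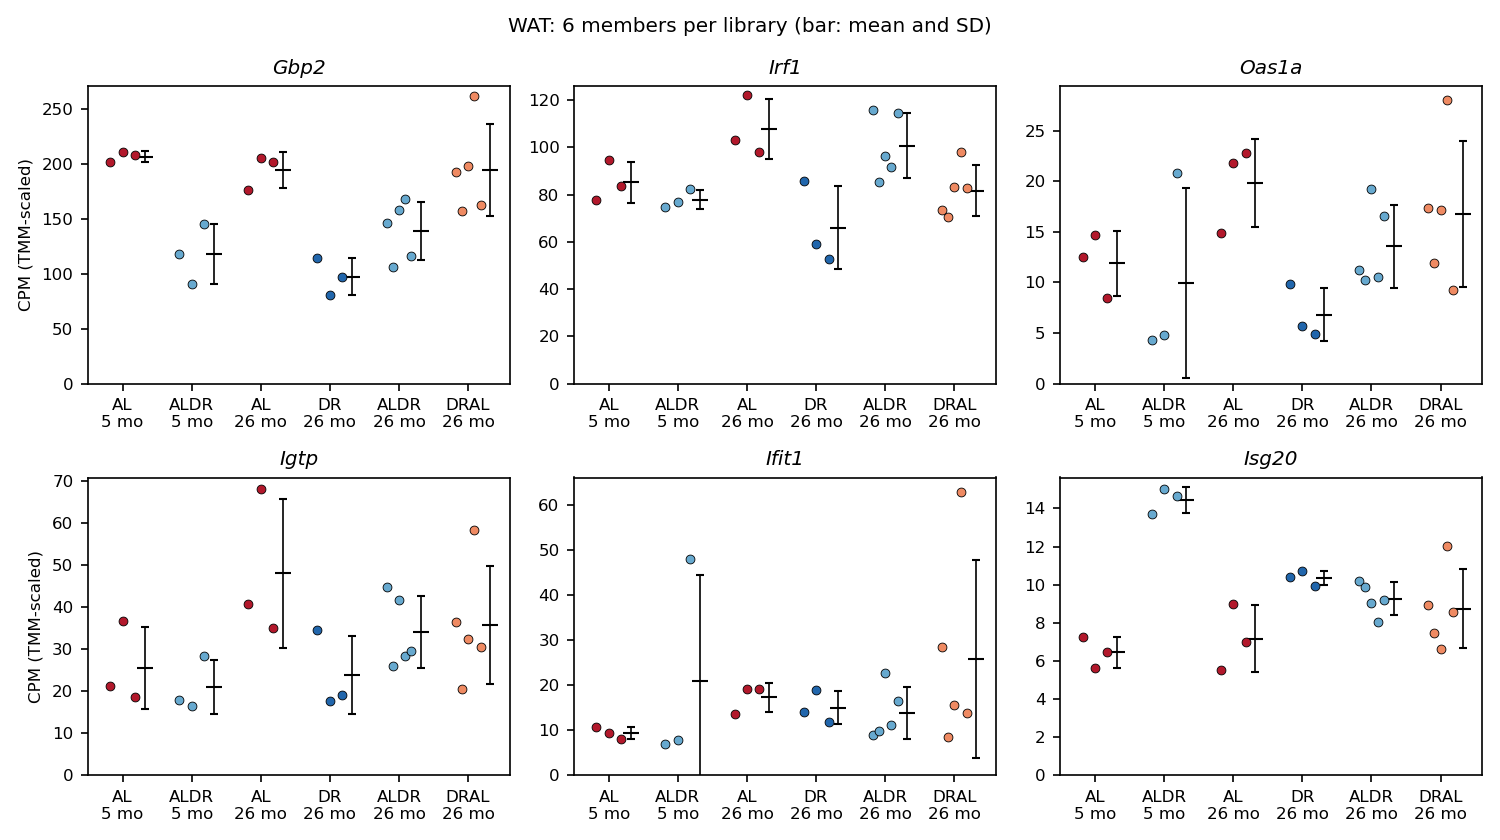
TMM-scaled CPM of 6 members in each WAT library (points), with group mean and SD as bars, by diet and age. Gbp2 is lowest in DR and in young ALDR, Isg20 is highest in young ALDR, and for Ifit1 a single library stands far above its group in young ALDR (48.0 CPM) and in DRAL (62.7 CPM).

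Short restriction in young WAT called 2 members, while 29.2% of all genes were called (14.8% higher, 14.4% lower). The signs were 19 positive and 18 negative. Gbp2 held 201, 211 and 208 CPM in AL and 118, 91.0 and 146 CPM in ALDR, without overlap, and fell by 0.81 ± 0.20 (edgeR adjusted p = 0.00555). Isg20 went from 7.25, 5.62 and 6.46 CPM to 13.7, 15.0 and 14.6 CPM, also without overlap, and rose by 1.16 ± 0.19 (adjusted p = 0.000231). Both passed the threshold under all 12 alternatives. Macrophage markers summed to 1542 to 2057 CPM in ALDR and 2475 to 3770 CPM in AL (4 of 10 called lower), and the 4 general leukocyte markers to 181 to 211 and 407 to 646 CPM (4 called lower). Neutrophil markers summed to 7.65 to 13.7 CPM in ALDR and 26.2 to 30.9 CPM in AL, with Ly6g at 0 in both, and NK cell markers to 1.68 to 5.11 and 10.5 to 19.2 CPM. T cell markers summed to 8.32 to 16.2 CPM in ALDR and 18 to 27.8 CPM in AL. None of these 5 sums overlapped between the groups, and their part in the Gbp2 and Isg20 results was not tested. Ifng, on few counts, was called lower in ALDR (adjusted p = 0.0389).
Young ALDR replicate 3 was the highest of its group in 36 of 37 members, against 30.7% of all tested genes. Ifit1 was 6.81, 7.69 and 48.0 CPM in the 3 ALDR libraries, and Mx1 was 1.87, 1.89 and 9.20 CPM. Without that library 6 of 37 members were called, 5 of them lower: Zbp1, Gbp2, Ddx58, Oas1a and Mx1. Over the alternatives 18.7% to 30.2% of all genes were called in this comparison. In ALDR replicate 3 macrophage markers summed to 2057 CPM, above the 1542 and 1543 CPM of the other 2, and T cell markers to 8.32 CPM, below their 13.9 and 16.2 CPM.

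Old against young AL mice showed nearly uniform signs, without a call. In WAT 36 of 37 members were higher at 26 months (median 0.70), and 28 had no overlap between the age groups, against 9.98% of all genes that were higher without overlap. edgeR called 0 members (0 by DESeq2), and 0.114% of all genes were called in that comparison. At an unadjusted p under 0.05 there were 17 members, against 19.8% of all genes. Rsad2 came nearest, with 18.6, 25.3 and 23.4 CPM in old and 15.8, 15.6 and 13.3 CPM in young libraries, a log2 fold change of 0.59 ± 0.19 and an adjusted p of 0.11. Gbp2, at -0.09, was the 1 negative member. Leaving out young AL replicate 2 gave 1 call, Stat2, with 8% of all genes called in that fit. DESeq2 called 5.03% of all genes, and the fit without old AL replicate 3 called 2.02%, with 0 members in each. B and plasma cell markers summed to 179 to 272 CPM in old and 17.3 to 80.2 CPM in young AL libraries, and T cell markers to 32.7 to 83.4 and 18 to 27.8 CPM. Adipocyte markers were lower with age, at 14288 to 17337 CPM in old and 19844 to 26783 CPM in young libraries, also without overlap. Epithelium markers (7.27 to 19.6 against 19.7 to 24.4 CPM) did not overlap either. No marker of these 4 lists was at 0, and their part in the age shift was not tested.
The difference of the restriction response (ALDR minus AL) between 26 and 5 months was called by edgeR in 0 members (0 by DESeq2), against 1.34% of all genes, and 2 members had an unadjusted p under 0.05, against 18.2% of all genes. When libraries were scaled by their totals alone, the median of all genes moved by -0.26 in DR against AL, by -0.21 in young ALDR against AL, by 0.14 with age, by 0.21 in DRAL against DR and by 0.20 in ALDR against DR. Fold changes here are relative to a median near 0 after TMM scaling. The even split of signs in young WAT would shift down under totals.
The shares of all genes called in WAT also moved with the fit. Over the alternatives they ran from 12.2% to 28.2% in DR against AL and from 1.17% to 7.8% in ALDR against AL (1.19% without AL replicate 1, 1.57% without AL replicate 3). For ALDR against DR they ran from 3.2% to 17.1%, with 6.65% without DR replicate 2 and 5.47% without DR replicate 3, the libraries without which Irf1 was no longer called. They ran from 2.42% to 30.7% in DRAL against DR (18.8% without DR replicate 2), from 0.379% to 6.1% in DRAL against AL (0.379% without AL replicate 2) and from 3.82% to 18% in ALDR against DRAL. In young ALDR against AL they ran from 18.7%, without ALDR replicate 2, to 30.2%. With age they ran from 0% to 8%, and for the age difference of the restriction response from 0.112%, without young ALDR replicate 2, to 4.48%, by DESeq2.

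**Figure D4:**
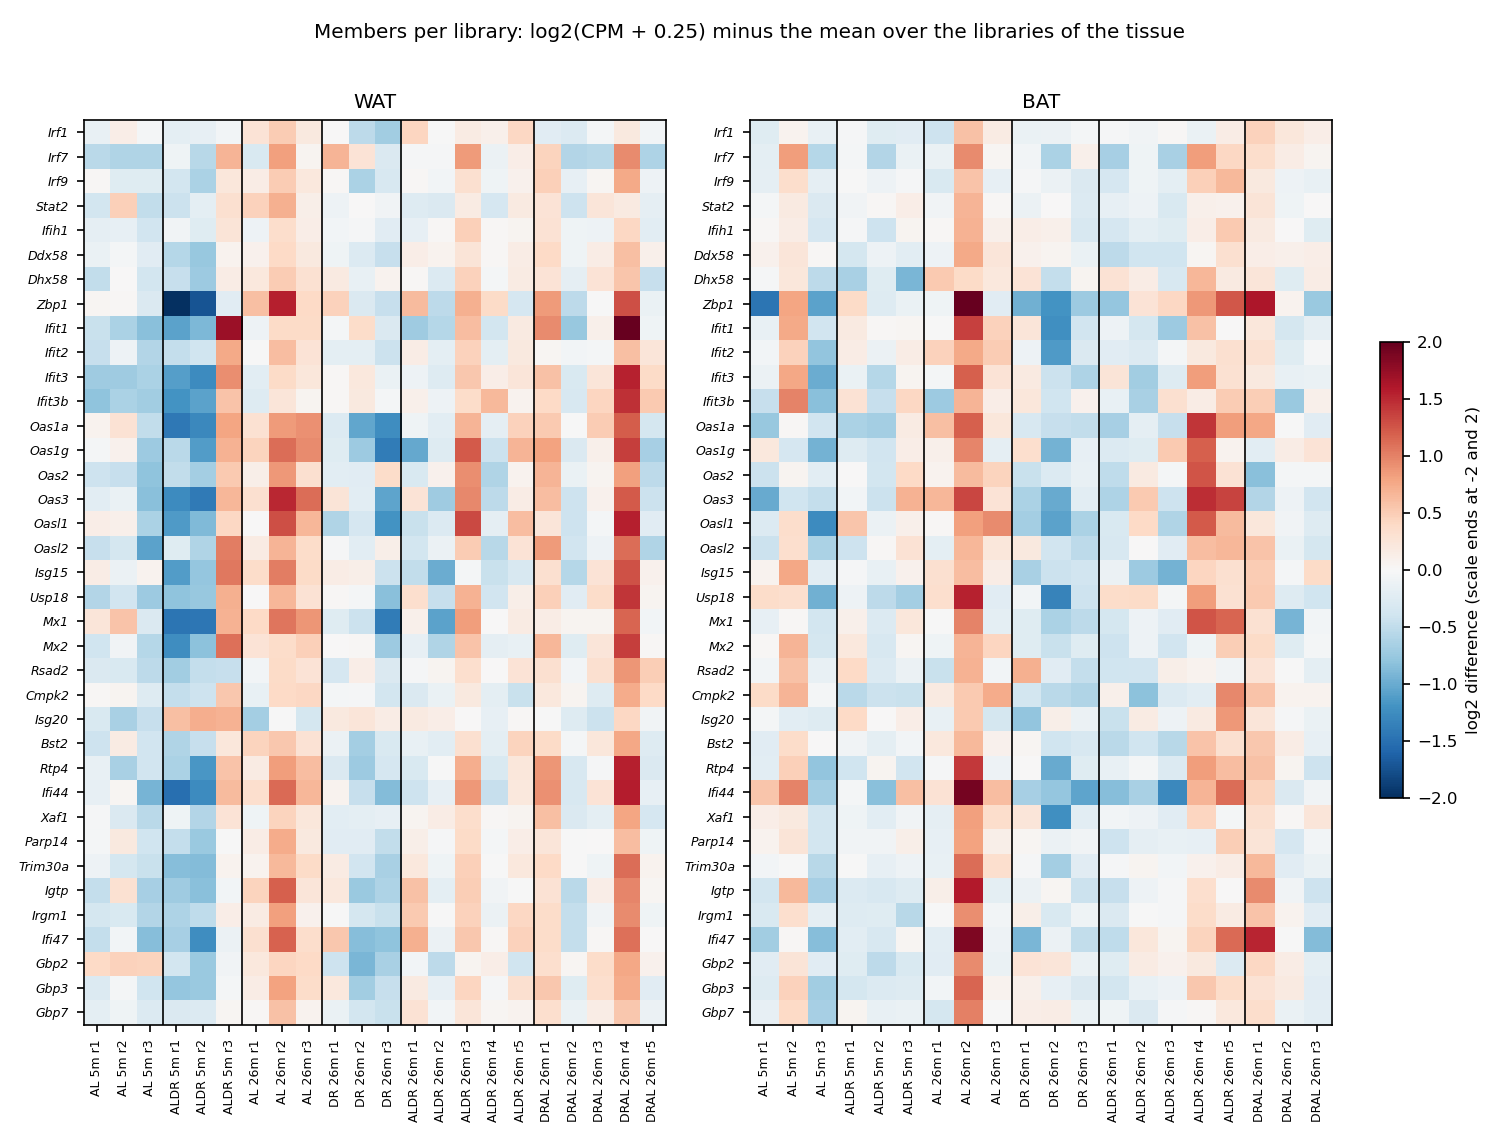
Log2 CPM of each member (rows) in each WAT and BAT library (columns, grouped by diet and age) minus its mean over the tissue's libraries. DRAL replicate 4 in WAT and AL replicate 2 of 26 months in BAT lie above the tissue mean in 37 of 37 members, WAT AL replicates 2 and 3 and ALDR replicate 3 of 26 months in 36 each, and young WAT ALDR replicate 3 in 29.

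Single libraries stood highest of their group in most members. In WAT, AL replicate 2 of 26 months was highest of its group in 33 of 37 members, against 37.2% of all tested genes, and DRAL replicate 4 in 36, against 30%. ALDR replicate 3 of 26 months was highest in 27 of 37, against 13.2% for all genes. In BAT, AL replicate 2 of 26 months was highest in 33 of 36 tested members, against 40.3% of all tested genes, young AL replicate 2 in 34, against 35.2%, and DRAL replicate 1 in 34, against 27.9%. In liver, ALDR replicate 3 was highest in 30 of 37, against 33% of all genes. In the 2 BAT libraries of 26 months T cell markers summed to 23.3 and 43.9 CPM, against 2.17 and 2.41 CPM in the other AL libraries and 0.674 and 3.51 CPM in the other DRAL libraries, with no marker of the list at 0 in either group. B and plasma cell markers summed to 168 and 263 CPM, against 14.1 and 12.2 CPM in the other AL libraries and 33.0 and 7.15 CPM in the other DRAL libraries. Leukocyte markers (136 and 200 CPM) and macrophage markers (340 and 276 CPM) were also each the highest of the group. In young BAT AL replicate 2 muscle markers summed to 4886 CPM, against 382 and 491 CPM in the other 2, and macrophage markers to 238 CPM, against 157 and 145 CPM. In WAT DRAL replicate 4 macrophage markers (4556 CPM), leukocyte markers (723 CPM) and B and plasma cell markers (679 CPM) were each the highest of the group. In WAT ALDR replicate 3 macrophage markers (3015 CPM) were the highest of the group, and in AL replicate 2 leukocyte (798 CPM) and T cell markers (83.4 CPM) were. In liver ALDR replicate 3 macrophage markers summed to 853.5 CPM, against 571 and 553.6 CPM, and leukocyte markers to 125 CPM, against 82.1 and 74.5 CPM. Their part in the pattern was not tested.

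In BAT 36 of 37 members were tested, since Oas1g had too few counts. Under lifelong restriction all 36 were negative against AL (median -0.69), and 12 had no overlap, against 15.4% of the 13845 genes tested that were lower without overlap. Of the members 1 fell, while 11.5% of all genes were called (5.52% lower). Over the alternatives that share ran from 4.36%, with the muscle covariate, to 14.5%, and was 4.86% without AL replicate 3, 4.99% without DR replicate 1 and 5.48% without AL replicate 1. The score was 2.71 ± 0.55 in AL and 2.00 ± 0.20 in DR (SD, n = 3 each), without overlap. The difference of -0.72 ran from -0.91 to -0.40 over the alternatives, and was -0.40 without AL replicate 2. Ifit2, which binds viral RNA and stops its translation, held 6.41, 7.99 and 6.65 CPM in AL and 4.30, 1.96 and 3.72 CPM in DR. These did not overlap, and it fell by 1.04 ± 0.30 (edgeR adjusted p = 0.0334).
Cmpk2, a mitochondrial nucleotide kinase beside Rsad2, stood at 11.6, 14.8 and 17.4 CPM in AL and 7.88, 7.01 and 6.65 CPM in DR, and missed the threshold (log2 fold change -1.02 ± 0.33, adjusted p = 0.0541). Ifi44 was 1.62, 5.52 and 2.12 CPM in AL and 0.717, 0.652 and 0.488 CPM in DR, with an edgeR adjusted p of 0.0563. Its DR values rest on 10, 4 and 8 counts. DR replicate 2, the shallowest BAT library at 6075585 counts, also gave the lowest Ifit2 value, on 12 counts.
The Ifit2 call was lost without AL replicate 2, without AL replicate 3, without DR replicate 2, without DR replicate 3, without AL replicate 2 and DRAL replicate 1 together, and with the muscle marker score as covariate. Leaving out AL replicate 1 lost it too, with Trim30a and Irf1 called in its place. Muscle markers summed to 851 to 3496 CPM in DR and 2.0 to 544 CPM in AL. Hepatocyte markers summed to 52.2 to 76.3 CPM in DR and 5.59 to 35.5 CPM in AL, without overlap and with Ttr at 0 in DR. Brown adipocyte markers were lower in DR without overlap, at 3520 to 4441 CPM against 5451 to 7993 CPM (1 of 5 called lower). Neutrophil markers summed to 0.326 to 1.51 CPM in DR and 3.97 to 4.63 CPM in AL, again without overlap, with Ly6g at 0 in both groups and Retnlg at 0 in DR. The part of these markers in the result was not tested.
In BAT no member was called by edgeR in the other comparisons, and DESeq2 called 0 in each. The share of all genes called at an adjusted p under 0.05 was 1.3% in ALDR against AL, 5.21% in ALDR against DR, 8.4% in DRAL against DR, 0% in DRAL against AL, 2.02% in ALDR against DRAL, 14.4% in young ALDR against AL and 0.0795% in old against young AL. These shares moved with the fit. Over the alternatives they ran from 0.03% to 6.04% in ALDR against AL (6.04% without ALDR replicate 1, 0.12% without AL replicate 3), from 0.472% to 7.92% in ALDR against DR, from 2.74% to 11.4% in DRAL against DR and from 0% to 0.033% in DRAL against AL. They ran from 0.0451% to 5.33% in ALDR against DRAL, from 5.91% to 22.5% in young ALDR against AL and from 0.0141% to 0.928% in old against young AL. At an unadjusted p under 0.05 there were 4 of 36 members in ALDR against AL (17.2% of all genes at that threshold), 4 in ALDR against DR (21.8%), 4 in DRAL against DR (24.2%), 1 in DRAL against AL (4.74%), 1 in ALDR against DRAL (17.4%), 1 in young ALDR against AL (29.3%) and 5 in old against young AL (10.3%). In the last, 35 of 36 members were positive, with a median of 0.45. The score difference of 0.52 there ran from 0.20, without old AL replicate 2, to 0.76 over the alternatives. B and plasma cell markers summed to 12.2 to 168 CPM in old and 1.15 to 7.16 CPM in young AL libraries of BAT, and red blood cell markers to 532 to 658 and 333 to 518 CPM, both without overlap and with no marker at 0. Their part in the age shift was not tested. The age difference of the restriction response gave 0 members at an unadjusted p under 0.05 (13.3% of all genes), and 0.0144% of all genes were called at the adjusted threshold (0% to 1.35% over the alternatives).

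Opposite late switches were compared in liver at 26 months, ALDR, restricted late, against DRAL, refed late. Of 37 members 16 fell in ALDR and 0 rose, 43.2% against 12.9% of the 12761 genes called lower (23.8% in either direction). The median of the members was -0.61, and 18 members were lower without overlap, against 22.4% of all genes. The score was 3.06 ± 0.37 in ALDR and 3.71 ± 0.05 in DRAL (SD, n = 3 each), again without overlap. Without AL and DR liver, the comparison does not tell which of the 2 groups departs from unswitched mice.

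**Figure D5:**
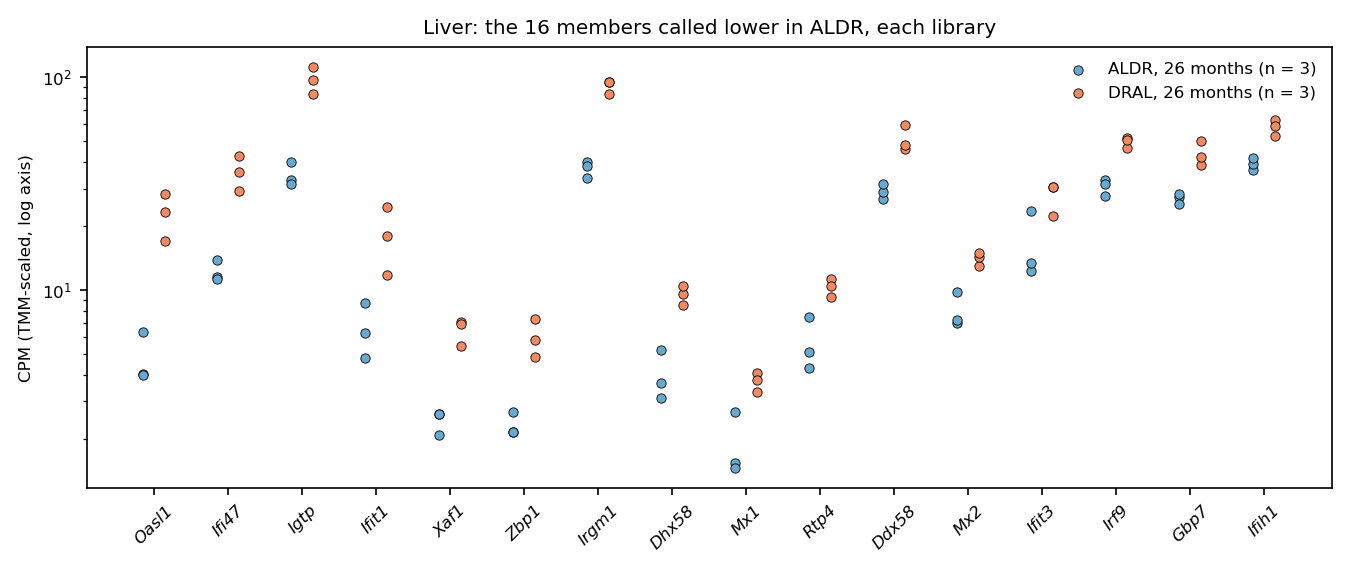
TMM-scaled CPM (log axis) of the 16 members called lower in ALDR, with each liver library as a point (ALDR left, DRAL right of each pair, n = 3 each). The groups are apart for 15 of the 16, and overlap for Ifit3, which has 23.5 CPM in ALDR replicate 3 and 22.3 CPM in DRAL replicate 1.

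Sensors fell in 4 of 4 cases. Zbp1, which senses left-handed nucleic acid, held 2.16, 2.68 and 2.15 CPM in ALDR and 5.83, 4.85 and 7.33 CPM in DRAL (log2 fold change -1.35 ± 0.22, edgeR adjusted p = 0.00253). Dhx58, a RIG-I homologue that tunes the other sensors, fell by 1.25, Ddx58 by 0.82 and Ifih1 by 0.57. For all 4, each ALDR library was below each DRAL library.
Of the 6 GTPases 4 fell. Irgm1, which controls the other immunity-related GTPases, was at 39.9, 38.1 and 33.8 CPM in ALDR and 83.4, 94.7 and 95.5 CPM in DRAL. It fell by 1.29 ± 0.11 (edgeR adjusted p = 0.000103), without overlap. Igtp had 33.1, 31.5 and 40.1 CPM against 83.2, 97.2 and 112 CPM (-1.48 ± 0.14, adjusted p = 0.000171). Ifi47 had 11.5, 11.3 and 13.9 CPM against 42.8, 29.1 and 36.0 CPM (-1.56 ± 0.16, adjusted p = 0.000265). Gbp7 fell by 0.69, while Gbp2 and Gbp3 were not called.
The synthetase family was split. Oasl1, which lacks synthetase activity, was lowest of all 37 by fold, with 4.04, 4.0 and 6.38 CPM against 17.1, 28.3 and 23.4 CPM (-2.25 ± 0.24, adjusted p = 0.000269). The other 5 were not called, Oas1g, Oas2, Oas3 and Oasl2 among them with positive signs, and the role's median was 0.25. Oas2 overlapped fully, at 2.49, 1.13 and 4.81 CPM against 2.33, 1.63 and 1.14 CPM.
Among the Ifit genes Ifit1 fell by 1.45 (4.78, 6.30 and 8.69 CPM against 11.8, 24.7 and 17.9 CPM; adjusted p = 0.00525) and Ifit3 by 0.76 (adjusted p = 0.0395). Irf9, the DNA-binding partner of STAT2, was the 1 transcription factor of 4 that fell, by 0.70 (adjusted p = 0.00195), with 33.0, 31.4 and 27.7 CPM against 46.4, 52.0 and 50.7 CPM. Of 11 other effectors Xaf1, Mx1, Mx2 and Rtp4 fell, and Isg15 and Usp18 were not called.

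Leaving out single liver libraries gave 13 to 24 called members, all lower, with 24 without ALDR replicate 3. Over the alternatives 13.3% to 24.1% of all genes were called in liver. Among only the 4 libraries with Y-chromosome counts, 12 were called, and 12 of these are among the 16, with 13.3% of all genes called. Without DRAL replicate 3 the share of all genes was 15.7%. Of the 10 macrophage markers 1 rose and 0 fell (median 0.07), with a summed level of 553.6 to 853.5 CPM in ALDR and 560 to 682 CPM in DRAL. T cell markers summed to 2.91 to 3.61 CPM in ALDR and 1.5 to 3.23 CPM in DRAL. Markers of epithelium were lower in ALDR without overlap (202 to 284 CPM against 466 to 523 CPM, 2 of 5 called lower), and those of hepatocytes were higher without overlap (85626 to 95579 CPM against 63607 to 73920 CPM, 3 of 6 called higher), with no marker of either list at 0. The markers listed for brown adipocytes summed to 254 to 299 CPM in ALDR and 123 to 157 CPM in DRAL, without overlap and with Ucp1 at 0. Their part in the fall of the members was not tested. The signalling genes that fell included Irf5 by 1.42 and Tyk2 by 0.43. Of 6 receptor genes 2 fell, Ifnar1 and Ifngr2, beside 12.9% of all genes called lower. Of 60 further interferon-induced genes tested 20 fell and 1 rose, against 12.9% of all genes called lower and 23.8% called in either direction. Those that fell included Uba7, which loads ISG15 onto its conjugating enzyme, by 0.96 (edgeR adjusted p = 0.000334). Mlkl, which carries out necroptosis, fell by 1.54 (edgeR adjusted p = 0.000519). Ifng had 3 counts in 3 of 6 liver libraries.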

How the data were processed

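RNA from WAT, BAT and liver was sequenced, and the authors deposited 1 count table per tissue. The values are raw counts per Ensembl gene, deposited by the authors and not normalized. Per the submitters' processing notes reads were trimmed with Trim Galore 0.3.7 and aligned with TopHat2 2.0.14 to GRCm38. The counting program, its strand setting and its annotation are not given in the sources used here. The ADRL titles of BAT samples were read as ALDR from their descriptions.

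Per tissue, all groups entered 1 edgeR 4.0.16 fit (R 4.3.3, TMM scaling, filterByExpr, quasi-likelihood test, Benjamini-Hochberg over all genes tested, threshold 0.05), which tested 15828, 13845 and 12761 genes in WAT, BAT and liver. Log2 CPM used a prior count of 2. The code was tested on simulated data. Alternatives were DESeq2 1.42.0, its size factors, no filter on low counts, only the groups compared, a replicate block and leaving out each library. The muscle covariate, the BAT run without 2 libraries and the 4-library liver run were chosen after seeing the data. Same-numbered libraries did not deviate together. Members and gene lists were chosen with earlier results of these data known. Any member could be named, with full statistics for called members (at most 12 per comparison, by smallest adjusted p). Of other genes those named are at most 3 called genes per list and comparison and the interferon genes; 1 gene is not reported here.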

Additional observations from a re-analysis of the deposited data

Results flagged for a closer look

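Of 114 tests of group extremes (groups of 5 libraries), 6 had 1 library far from the others of its group. Chance flags about 1 in 20 groups. In WAT ALDR of 26 months, replicate 3 had an Irf7 level of 51.5 CPM (the others 25.9 to 30.9) and an Ifih1 level of 94.8 CPM (60.8 to 70.2). In WAT DRAL, replicate 4 had Oasl1 at 10.2 CPM (2.39 to 3.95) and Mx1 at 12.8 CPM (5.39 to 6.24). In BAT ALDR of 26 months, Xaf1 was 9.72 CPM in replicate 4 (6.08 to 7.0) and Parp14 was 41.0 CPM in replicate 5 (21.7 to 26.1). In WAT the same libraries were highest of their group in 27 and 36 of the 37 members.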

How the results depend on the processing

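No called member changed direction in the 421 fits for single members, of which 319 kept the call and 102 lost it. Of 268 alternatives for counts of called members, 220 stayed within 1.5 times the count given above and 48 moved. The 220 include counts of 0 that stayed at 0, so they do not measure how stable the calls were. The comparisons with called members are given singly below. The sign of a score difference changed in 15 of 188 alternatives. In WAT, ALDR minus DRAL (-0.17) ran up to 0.02, reached without DRAL replicate 4, DRAL minus AL (-0.17) up to 0.03, with the median over members, and young ALDR minus AL (-0.08) from -0.47 to 0.17. In BAT, ALDR minus DRAL (0.02) ran from -0.10 to 0.19 and young ALDR minus AL (0.00) from -0.21 to 0.25. DR against AL in WAT (9 called) gave 2 with the muscle covariate and 2 to 11 with single libraries left out; 13 were called by DESeq2 and 6 without the filter. ALDR against DR in WAT (1) gave 3 by DESeq2, 0 with the muscle covariate and 0 to 2 with libraries left out. DRAL against DR in WAT (5) gave 9 by DESeq2, 3 with only the groups compared, 0 with the muscle covariate and 1 to 10 with libraries left out. ALDR against DRAL in WAT (1) gave 0 without the filter, with only the groups compared and with the muscle covariate, and 0 to 1 with libraries left out. Young ALDR against AL in WAT (2) gave 2 to 6, and old against young AL in WAT (0) gave 0 to 1. DR against AL in BAT (1) gave 4 by DESeq2, 3 with only the groups compared, 0 with the muscle covariate, 0 without the 2 libraries rich in lymphocyte markers and 0 to 2 with libraries left out. ALDR against AL in BAT (0) gave 0 to 1 with libraries left out, and DRAL against DR and young ALDR against AL in BAT (0 each) gave 1 with only the groups compared. The cause of these moves was not tested.

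With the replicate number as a block, ALDR against AL in WAT gave 1, ALDR against DR 2 and DRAL against DR 1, DR against AL in BAT gave 4, ALDR against AL in BAT 1, young ALDR against AL in BAT 1 and the liver comparison 17. The mean correlation of same-numbered libraries was 0.00 in WAT, -0.03 in BAT and -0.19 in liver, so the numbers were not treated as pairs. Depth limits the low members most: in BAT Oas3 had 0 counts in 2 libraries.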
